A study of Mus musculus with 6 samples.

Results

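The genes followed here encode secreted cytokines and growth factors of blood cell niches. They are Kitl, Csf1, Il34, Osm, Lif, Hgf, Spp1, Pdgfa, Pdgfb and Pdgfc. Members were picked by symbol from the deposited gene rows, and all 10 of 10 were found among 51912 listed genes. RNA was sequenced from GFP-positive cells of the aorta-gonad-mesonephros (AGM) of MacGreen (Csf1r-EGFP) mouse embryos at stage E10.5, counted in days of embryonic development. The AGM is the tissue around the embryonic dorsal aorta where definitive blood stem cells arise. The Csf1r promoter drives the EGFP reporter, so macrophages and other cells with an active Csf1r promoter fall in the gate. The GFP-positive cells were divided by surface mannose receptor (CD206) into GFP+CD206- cells, called CD206neg, and GFP+CD206+ cells, called CD206pos. There were 3 libraries a group, read as 1 of each population from each of 3 litters, and each library pooled 3 to 5 AGM. The litter was taken from the AGM number in the titles, and no label states it outright. Both groups carried the same transgene, stage and collagenase digestion (45 min at 37 degrees Celsius), and no unsorted or GFP-negative cells were analysed here.

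Niche factors are proteins that neighbouring cells secrete or display and that blood cells need in order to survive, divide or mature. Kitl (stem cell factor) acts through Kit, and Csf1 and Il34 share the macrophage receptor Csf1r. Oncostatin M (Osm) and leukaemia inhibitory factor (Lif) signal through receptor pairs that contain gp130, the product of Il6st. Hepatocyte growth factor (Hgf) acts through Met, osteopontin (Spp1) binds integrins and Cd44, and the platelet-derived growth factors act through Pdgfra and Pdgfrb. In embryos these ligands come from stromal, endothelial and blood cells in different measure, and macrophages are known as a source of several of them.

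The libraries held between 16730846 and 18214283 reads assigned to genes, so that 3 reads stand for 0.16 to 0.18 CPM, the counts of a gene relative to all counts in genes and scaled to a fixed library size. No molecular identifiers are given for the reads, so counting intervals and floors leave out amplification and other sources of error. Zeros were frequent even at moderate levels: of genes averaging 20 to 50 reads per library of a population, 20.01% (CD206neg) and 23.6% (CD206pos) lacked reads in some library of it. CPM values below are scaled by TMM, a factor per library that corrects for composition, and are given as mean ± SD of 3 libraries. The 10 macrophage markers sum to between 5872 and 7183 CPM in CD206neg and between 9688 and 12959 CPM in CD206pos, and none is at 0 in either group. Of the 10, edgeR called 5 higher and 0 lower in CD206pos, against 2.97% and 1.90% of all tested genes. The markers differed: C1qb went from 1031 ± 108 to 3212 ± 244 CPM, while Lyz2 went from 1426 ± 398 to 945 ± 92.6 CPM and was not called (adjusted p = 0.16, edgeR). The 8 blood progenitor markers sum to between 694 and 998 CPM in CD206neg and to between 39.1 and 76.8 CPM in CD206pos, and the 9 markers of granulocyte and monocyte precursors to between 1888 and 2919 CPM and between 17.4 and 72.8 CPM. In CD206pos Kit, S100a8, S100a9, Ms4a3, Fcnb and Ly6c2 were at 0 reads. The 8 endothelial markers sum to between 136 and 266 CPM in CD206neg and between 37.4 and 64.4 CPM in CD206pos. The 9 mesenchymal markers stood apart by litter: they sum to 96.0 CPM (CD206neg) and 74.9 CPM (CD206pos) in litter 3 and to between 4.70 and 14.7 CPM in the other 4 libraries. Mast cell markers sum to between 29.8 and 77.6 CPM in CD206neg and to at most 0.63 CPM in CD206pos, and megakaryocyte markers to between 27.9 and 38.7 CPM and between 2.32 and 10.2 CPM. Hdc gave most of the mast cell sum (42.8 ± 25.9 CPM in CD206neg). Tpsb2 had 0 reads, and Fcer1a and Ms4a2 each had reads in a single library. Itga2b gave most of the megakaryocyte sum (21.1 ± 4.79 CPM in CD206neg). Of its markers only Ppbp had a higher mean in CD206pos (5.66 ± 4.34 against 2.55 ± 1.87 CPM). In such bulk samples fewer cells of a type and less RNA per cell cannot be told apart.

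Promoters are printed for the member with the most reads (Spp1) and for the ligands of the progenitor receptor Kit (Kitl) and of the receptor behind the reporter (Csf1). RefSeq (GRCm38.p6) entries of 250 bases before to 50 after a start site matched 7 of the 10 genes, and Il34, Osm and Pdgfb had no entry. Each runs 5′ to 3′ along the gene's strand, and capitals mark any match to the motifs searched. The windows are Spp1 at chr5:104434861-104435160 (plus strand), Kitl at chr10:100015571-100015870 (plus strand) and Csf1 at chr3:107760420-107760719 (minus strand).
Spp1: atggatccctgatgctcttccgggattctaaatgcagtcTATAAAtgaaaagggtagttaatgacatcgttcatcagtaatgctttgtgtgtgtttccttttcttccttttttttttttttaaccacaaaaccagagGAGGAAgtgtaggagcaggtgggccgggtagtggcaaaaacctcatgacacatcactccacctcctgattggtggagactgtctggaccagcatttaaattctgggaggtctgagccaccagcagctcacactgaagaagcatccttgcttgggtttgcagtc
Kitl: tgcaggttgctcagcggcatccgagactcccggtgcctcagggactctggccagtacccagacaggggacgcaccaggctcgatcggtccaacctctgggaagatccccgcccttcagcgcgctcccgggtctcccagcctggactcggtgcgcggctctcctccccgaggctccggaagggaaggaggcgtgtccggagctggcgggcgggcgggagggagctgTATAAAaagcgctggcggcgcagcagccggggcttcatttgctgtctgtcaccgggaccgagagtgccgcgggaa
Csf1: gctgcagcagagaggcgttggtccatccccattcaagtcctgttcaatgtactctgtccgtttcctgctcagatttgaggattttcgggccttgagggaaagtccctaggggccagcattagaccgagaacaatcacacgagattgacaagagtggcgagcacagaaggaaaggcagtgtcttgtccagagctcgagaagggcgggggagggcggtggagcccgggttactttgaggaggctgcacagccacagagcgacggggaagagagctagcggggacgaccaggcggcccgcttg
The motifs, searched on both strands, were the PU.1 core GAGGAA, the AP-1 motif TGANTCA, the TATA box TATAAA and the STAT motif TTCNNNGAA. They occur in 28.3%, 7.81%, 13.6% and 8.30% of all 32851 RefSeq windows of this length. The printed Spp1 window holds TATAAA 211 bases and GAGGAA 113 bases upstream of the start site, and the Kitl window holds TATAAA 25 bases upstream. None of the 4 was found in the Csf1 window. Spp1 has a further window at chr5:104435942-104436241 (36.7% G and C), which is not printed and holds none of them either. The printed Spp1 window has 45.3% G and C and 3 CpG sites, against 68.7% and 28 in Kitl and 58.7% and 16 in Csf1, and the medians of all windows are 52.7% and 7. A match describes these letters only, and no binding was measured.

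Across the set, Spp1 and Osm gave most of the reads, and no member changed between the populations by the test. Of the 10 genes, 8 passed the filter on low counts, and Il34 and Pdgfc did not. None of the 8 was called at an adjusted p under 0.05 by edgeR's quasi-likelihood test, which called 4.87% of the 12668 genes tested (2.97% higher and 1.90% lower in CD206pos, 376 and 241 genes). None was called by edgeR with the litter as a block, by limma-voom or by DESeq2 either, which called 5.55%, 6.09% and 9.56% of all genes. With library totals as the only scaling, the split over all genes was 273 higher and 284 lower. At an unadjusted p under 0.05, 1 of the 8 passed (Spp1), against 17.6% of all tested genes. The groups did not overlap for 3 of the 8 (Spp1 and Pdgfa higher, Osm lower in CD206pos), where 24.6% of all tested genes had groups apart (12.8% higher and 11.8% lower in CD206pos). Pdgfa passed the filter through its CD206pos libraries, where it is high, so its place in this count is not independent of its direction. The median log2 fold change of the 8 was 0.27 and that of all tested genes -0.0043.

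**Figure D1:**
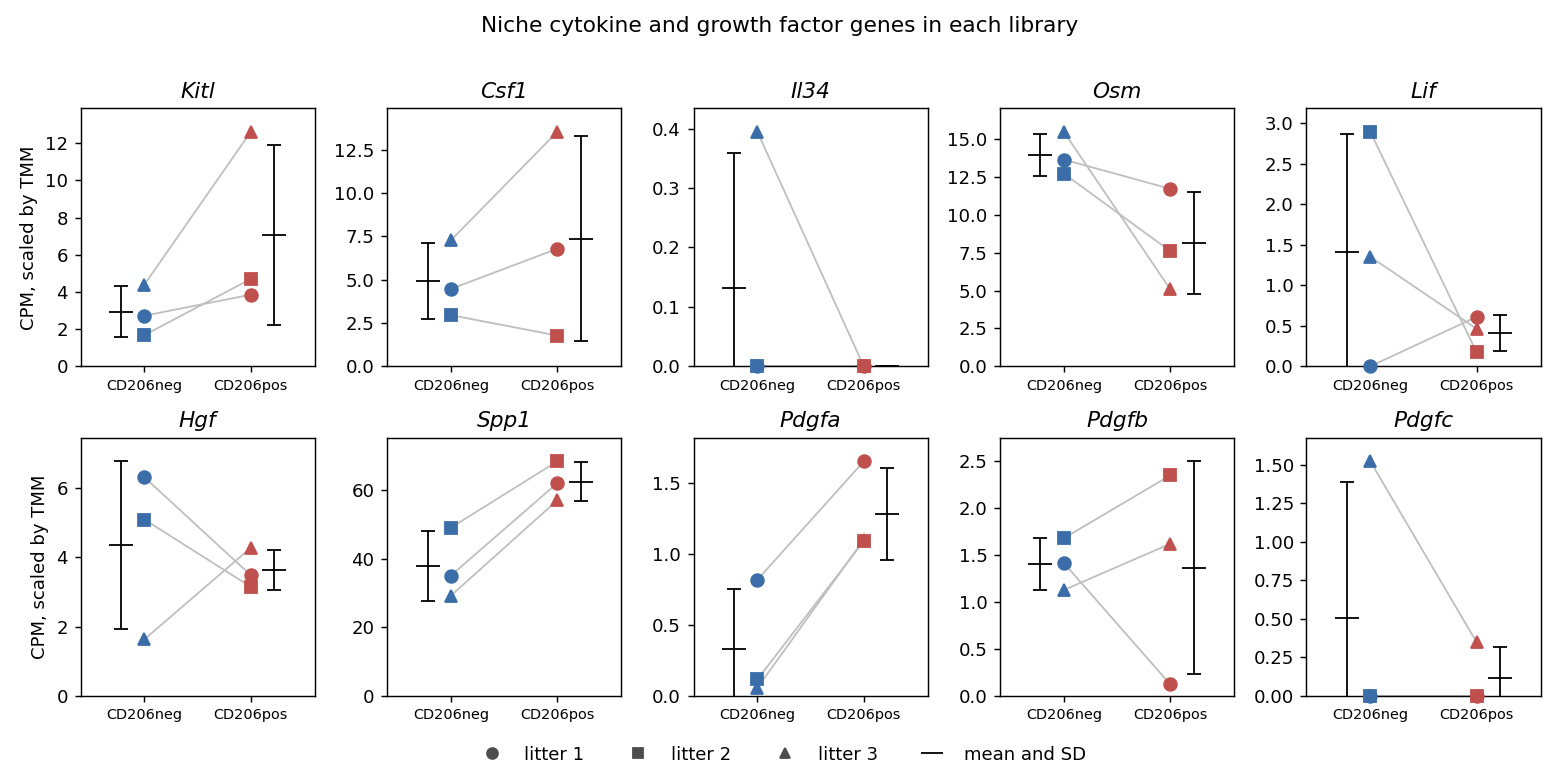
Level of each of the 10 genes in each library, in CPM scaled by TMM (vertical axes start at 0 and differ between panels). Symbols are litters, grey lines join the libraries of a litter, and the black bar is the mean with its SD of 3 libraries. Spp1 and Pdgfa are higher in all 3 CD206pos libraries and Osm is lower, while the other 7 genes overlap between groups.

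Spp1 encodes osteopontin, a secreted phosphoprotein of matrix and activated macrophages that is also known from the stem cell niche. The gene (ENSMUSG00000029304.14, GRCm38 chromosome 5, 104435118 to 104441050, plus strand) had 644, 846 and 518 reads in CD206neg of litters 1, 2 and 3 and 1014, 1193 and 985 in CD206pos. Every CD206pos library lay above every CD206neg library. Mean levels were 37.8 ± 10.2 CPM (CD206neg) and 62.4 ± 5.69 CPM (CD206pos), a ratio of 1.65. Within litters 1, 2 and 3 CD206pos was 1.77-fold, 1.39-fold and 1.95-fold higher. The log2 fold change was 0.73 ± 0.23 (SE) with a 95% interval of 0.19 to 1.26, an unadjusted p of 0.013 and an adjusted p of 0.14 (edgeR), so that it missed the threshold. With the litter as a block the adjusted p was 0.074, with DESeq2 it was 0.060, and over all alternatives it ranged from 0.060 to 0.42. Spp1 shares 18.8% of its exon bases with Gm42793 on the same strand, and reads on shared bases are not counted for either gene. Spp1 alone held between 46.8% and 64.3% of the reads of the 10 genes in CD206neg and between 59.3% and 76.6% in CD206pos.

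Osm encodes oncostatin M, a cytokine of the interleukin 6 family made by macrophages and other blood cells. The gene (ENSMUSG00000058755.3, GRCm38 chromosome 11, 4236420 to 4241026, plus strand) had 251, 220 and 275 reads in CD206neg and 192, 133 and 88 in CD206pos of litters 1, 2 and 3. All CD206pos libraries were below all CD206neg libraries, and CD206pos of litter 3 was the lowest. Mean levels of Osm were 14.0 ± 1.41 CPM (CD206neg) and 8.15 ± 3.36 CPM (CD206pos), 1.71-fold apart. By litter, CD206neg was 1.16-fold, 1.67-fold and 3.05-fold above CD206pos. The log2 fold change of -0.78 ± 0.38 (SE) had a 95% interval of -1.65 to 0.10 and an adjusted p of 0.35 (edgeR), so the difference did not pass. Without CD206pos replicate 1 the log2 value was -1.14 (adjusted p = 0.15), and without litter 3 it was -0.49 (adjusted p = 0.75).

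Lif, which encodes leukaemia inhibitory factor, a relative of oncostatin M known for its part in stem cell culture, lies beside Osm. Both genes are on the plus strand of chromosome 11, Lif (ENSMUSG00000034394.14) at 4257557 to 4272514, with 16530 bases and no other listed gene between them. Lif had 0, 50 and 24 reads in CD206neg and 10, 3 and 8 in CD206pos. The CD206neg libraries thus held both the lowest and the highest value. Mean levels of Lif were 1.42 ± 1.45 CPM (CD206neg) and 0.42 ± 0.22 CPM (CD206pos), with a log2 interval of -5.23 to 1.73 and an adjusted p of 0.65 (edgeR), which leaves changes in either direction within the interval. Per kilobase of exon Osm was above Lif in each of the 6 libraries, and Lif made up between 0% and 10.6% of the pair in CD206neg and between 1.16% and 4.53% in CD206pos.

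Kitl encodes stem cell factor, the ligand that progenitors and germ cells need through Kit. The gene (ENSMUSG00000019966.18, GRCm38 chromosome 10, 100015630 to 100100416, plus strand) had 50, 29 and 78 reads in CD206neg and 63, 82 and 218 in CD206pos of litters 1, 2 and 3. CD206pos was higher within each litter, by 1.41-fold, 2.80-fold and 2.87-fold, but the groups overlapped, since CD206neg of litter 3 lay above CD206pos of litter 1. Across all tested genes, 44.1% had 1 direction in all 3 litters. Mean levels of Kitl were 2.93 ± 1.37 CPM (CD206neg) and 7.05 ± 4.83 CPM (CD206pos). The log2 fold change was 1.26 ± 0.65 (SE, 95% interval -0.22 to 2.75) with an adjusted p of 0.38 (edgeR), and without CD206pos replicate 3 it was 0.51 (adjusted p = 0.84). Its receptor gene Kit had 1344, 1761 and 1295 reads in CD206neg and 0 in each CD206pos library (adjusted p = 0.00042, edgeR), a gap that stayed called under all 18 alternatives. Kit also stands in the progenitor marker list, whose levels are given above.

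Csf1 encodes macrophage colony-stimulating factor, and Il34 the other ligand of its receptor. Csf1 (ENSMUSG00000014599.10, GRCm38 chromosome 3, 107741048 to 107760469, minus strand) had 82, 51 and 129 reads in CD206neg and 111, 31 and 234 in CD206pos. Litter 2 was lowest and litter 3 highest in both populations, and the groups overlapped. Mean levels of Csf1 were 4.90 ± 2.19 CPM (CD206neg) and 7.37 ± 5.90 CPM (CD206pos, log2 fold change 0.59 ± 0.72, SE, 95% interval -1.05 to 2.22, adjusted p = 0.77, edgeR). The sign rested on CD206pos replicate 3, without which the log2 value was -0.24. Il34 (ENSMUSG00000031750.15, GRCm38 chromosome 8, 110741829 to 110805924, minus strand) had 7 reads in CD206neg of litter 3, which is 0.39 CPM, and 0 in each of the other 5 libraries. It was below the filter. By counting error alone 0 reads allow up to 0.18 CPM in those 5, and the zeros at moderate levels given above are more than counting error. The library with the Il34 reads also had the highest epithelial marker sum (38.7 CPM, against 2.01 to 17.4 CPM in the other 5) and the only reads of the epithelial gene Epcam (41). Its mesenchymal (96.0 CPM), neural (14.8 CPM), granulocyte and monocyte (2919 CPM) and mast cell (77.6 CPM) marker sums were likewise the highest of the 6 libraries. The part of any such cells in the Il34 reads was not tested. The receptor gene Csf1r had between 26401 and 48963 reads in each library, far more than either ligand, and was not called (adjusted p = 0.23, edgeR). Of 18 alternatives, only the fit without CD206pos replicate 1 called it (0.041, edgeR). All cells were sorted on a reporter driven by the Csf1r promoter, so a high Csf1r level in both populations was selected by the gate. The mesenchymal marker sum was also highest in the litter 3 libraries that held the highest Kitl and Csf1 levels of each population, and its part in these levels was not tested.

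Hgf encodes hepatocyte growth factor, a protein of stromal and some blood cells that moves and protects cells with Met. The gene (ENSMUSG00000028864.7, GRCm38 chromosome 5, 16553495 to 16620152, plus strand) had 116, 88 and 29 reads in CD206neg and 57, 55 and 74 in CD206pos. CD206neg held both the highest and the lowest library, so that the CD206pos values lay inside its range. Means were 4.35 ± 2.43 and 3.64 ± 0.58 CPM, with a log2 fold change of -0.26 ± 0.64 (SE), a 95% interval of -1.72 to 1.21 and an adjusted p of 0.91 (edgeR). The sign turned without CD206neg replicate 1 (0.11). Met had 64, 421 and 232 reads in CD206neg and 32, 0 and 7 in CD206pos, lower in CD206pos in each litter, but it was not called (adjusted p = 0.11, edgeR). DESeq2 called Met (adjusted p = 0.0015), the only 1 of the 17 alternatives testing it that did. Without litter 2 its adjusted p was 0.43 (edgeR).

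The platelet-derived growth factor genes were close to the limit of detection. Pdgfa and Pdgfb encode the chains of the classical dimers, and Pdgfc encodes a chain that is secreted latent and cleaved outside the cell. Pdgfa (ENSMUSG00000025856.15, GRCm38 chromosome 5, 138976014 to 138997370, minus strand) had 15, 2 and 1 reads in CD206neg and 27, 19 and 19 in CD206pos, so the groups did not overlap. It passed the filter on low counts through its CD206pos libraries, where it is high. Mean levels of Pdgfa were 0.33 ± 0.42 CPM (CD206neg) and 1.28 ± 0.32 CPM (CD206pos), 3.88-fold apart. The log2 fold change was 1.93 ± 1.24 (SE, 95% interval -0.90 to 4.76) with an adjusted p of 0.50 (edgeR). The CD206neg libraries of litters 2 and 3 lay under the floor of 3 reads, and without CD206neg replicate 1 the fitted log2 value was 3.79 (adjusted p = 0.35), so that 1 library set the size of the difference. Pdgfa shares 26.1% of its exon bases with 6330403L08Rik on the opposite strand, and no strand option was set, so reads there count for neither gene.

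Pdgfb (ENSMUSG00000000489.6, GRCm38 chromosome 15, 79995900 to 80014808, minus strand) had 26, 29 and 20 reads in CD206neg and 2, 41 and 28 in CD206pos. CD206pos of litter 1 was the lowest library and CD206pos of litter 2 the highest. Means were 1.41 ± 0.28 and 1.36 ± 1.14 CPM, the 95% interval of the log2 fold change ran from -2.55 to 2.46 and the adjusted p was 0.99 (edgeR). Pdgfc (ENSMUSG00000028019.9, GRCm38 chromosome 3, 81036416 to 81214040, plus strand) had reads only in litter 3, with 27 in CD206neg and 6 in CD206pos, and 0 in the other 4 libraries. It was below the filter, and its reads fell in the same 2 libraries that held the highest mesenchymal marker sums, whose part in it was not tested. Per kilobase, Pdgfb made up between 54.9% and 93.9% of the 3 chains in CD206neg and 7.34%, 69.8% and 56.9% in CD206pos of litters 1, 2 and 3. The Pdgfa part is understated in these shares, since reads on its shared bases are not counted.

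**Figure D2:**
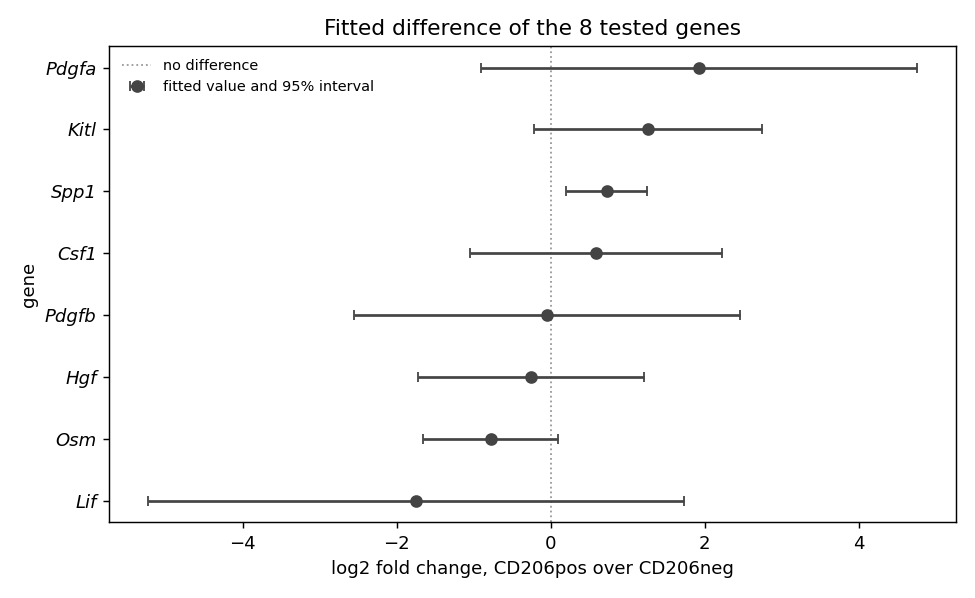
Fitted log2 fold change (CD206pos over CD206neg) of the 8 genes that passed the filter, with 95% intervals from edgeR's quasi-likelihood fit, not adjusted for the number of genes. The Spp1 interval (0.19 to 1.26) lies above 0 and the other 7 include 0, and the widest belong to Lif, Pdgfa and Pdgfb.

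Levels of different genes were compared as scaled CPM per kilobase of exon, using the exon lengths in the deposited files. These lengths include bases shared with other genes, where reads are not counted. Levels of Pdgfa (26.1% shared) and Spp1 (18.8% shared) are therefore understated, and the place of Pdgfa in the order is loosely fixed. In CD206neg the order from high to low was Spp1 (22.9 ± 6.17), Osm (6.15 ± 0.62), Csf1 (0.93 ± 0.42), Hgf (0.61 ± 0.34), Kitl (0.50 ± 0.23), Pdgfb (0.48 ± 0.09), Lif, Pdgfa, Pdgfc and Il34. Only Spp1 and Osm stood apart from their lower neighbour in all 3 libraries, and from Csf1 down the ranges of neighbours overlapped. In CD206pos the order was Spp1 (37.9 ± 3.45), Osm (3.59 ± 1.48), Csf1 (1.39 ± 1.12), Kitl (1.19 ± 0.82), Hgf (0.51 ± 0.08), Pdgfb (0.47 ± 0.39), Pdgfa (0.41 ± 0.10), Lif, Pdgfc and Il34. There Spp1 and Osm, Kitl and Hgf, and Pdgfa and Lif were neighbours with ranges apart. Among tested genes, the mean Spp1 level per kilobase lay at the 78.0 percentile in CD206neg and the 85.3 percentile in CD206pos, Osm at 52.7 and 42.4, Csf1 at 19.6 and 26.4, and Kitl at 11.7 and 24.0.

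Receptor genes were read on the same scale per kilobase. Csf1r was at 328 ± 32.2 in CD206neg and 468 ± 126 in CD206pos, and Cd44, a receptor for osteopontin and hyaluronan, at 38.2 ± 3.02 and 23.7 ± 2.71. Il6st was at 5.14 ± 2.31 and 7.66 ± 1.83 and Lifr, its partner for leukaemia inhibitory factor, at 4.01 ± 1.35 and 6.83 ± 2.24. Osmr, its partner for oncostatin M, had 0 reads in each of the 6 libraries. Whether Osmr shares exon bases with other genes, where reads are not counted, was not checked. Pdgfra had 0, 1 and 128 reads in CD206neg and 0, 23 and 0 in CD206pos, and Pdgfrb 19, 153 and 41 and 5, 0 and 41. Both of these genes are also on the mesenchymal marker list.

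**Figure D3:**
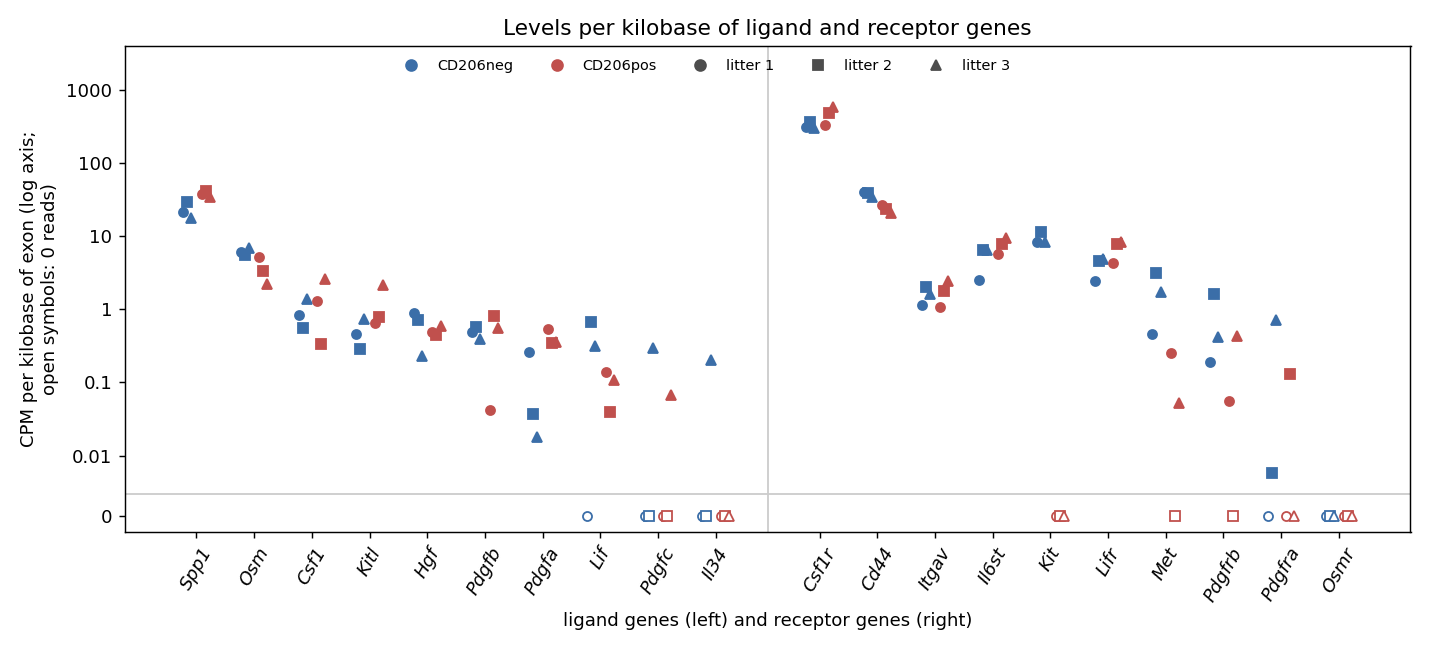
Scaled CPM per kilobase of exon in each library for the 10 ligand genes (left, by falling mean) and 10 receptor genes (right), on a log axis with 0 reads drawn as open symbols below the line. Colours are populations and symbols litters. Spp1 and Osm lead the ligands, and Csf1r, whose promoter drives the sorted reporter, leads the receptors shown. Kit has 0 reads in CD206pos and Osmr has 0 reads in all 6 libraries.

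Of 16 receptor genes listed for the 10 ligands, 13 were tested, 0 rose and 2 fell in CD206pos. These were Kit and Cd44, and the median log2 fold change was -0.15. Kit, with 0 reads in CD206pos, passed the filter on low counts through CD206neg alone, where it is high. Over all tested genes edgeR called 2.97% higher and 1.90% lower. Cd44 fell from 259 ± 20.5 to 161 ± 18.4 CPM (log2 fold change -0.69 ± 0.15, SE, adjusted p = 0.033, edgeR). With the litter as a block 4 were called, against 5.55% of all genes. Lifr (log2 fold change 0.77, adjusted p = 0.045) and the osteopontin-binding integrin gene Itga9 (1.51, adjusted p = 0.038) were added as higher. Without that block Lifr had an adjusted p of 0.28 and Itga9 of 0.13. Of the other integrin genes listed, Itgb3 was lower in CD206pos (2.54 ± 2.92 against 27.8 ± 10.9 CPM) and Itgb1 higher (415 ± 33.6 against 325 ± 25.6 CPM). Neither was called (adjusted p = 0.12 and 0.20, edgeR), and nor were Itgav (0.90) and Itga4 (0.82). DESeq2 called 5 (Kit, Cd44, Met, Itga9 and Sdc1), against 9.56% of all genes. The call of Cd44 did not survive the removal of any CD206neg library or of CD206pos replicate 2 or 3 (adjusted p from 0.062 to 0.14), or of any litter (0.075 to 0.34).

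Of 10 genes for proteases and inhibitors that process or release these ligands, 8 were tested and 1 rose, against 2.97% of all tested genes. Plau, encoding urokinase, rose 3.93-fold, from 7.94 ± 3.47 CPM to 31.2 ± 3.87 CPM in CD206pos (adjusted p = 0.019, edgeR). Its call did not survive the removal of CD206neg replicate 1 or 3 or of any CD206pos library (adjusted p from 0.052 to 0.075), or of any litter (0.093 to 0.16). The macrophage marker sum was also higher in CD206pos, and its part in the Plau level was not tested. DESeq2 called 4 of the 8, with Mmp9 and Adam17, a protease that sheds cell surface growth factors, higher and the inhibitor gene Spint2 lower. It called 9.56% of all genes. The list's median log2 fold change was 0.17. Of 22 transducer and feedback genes, 20 were tested (median 0.16) and 1 rose, against 2.97% of all tested genes. This was the ERK phosphatase gene Dusp6. It went from 293 ± 31.3 to 440 ± 26.5 CPM (adjusted p = 0.045, edgeR), a call lost with library totals as scaling (0.086), upper-quartile scaling (0.056) or no filter (0.058), and without any 1 of the 6 libraries (adjusted p between 0.066 and 0.23) or any litter (0.11 to 0.36).

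Of 31 other niche factor genes, 17 were tested, 2 rose and 3 fell in CD206pos (median log2 fold change 0.06). Over all tested genes 2.97% rose and 1.90% fell. Of the 3 that fell, Angpt1 and Vegfc passed the filter on low counts through their CD206neg libraries, where they are high. For these genes the filter and the direction are not independent. Pdgfd, with reads in CD206pos alone, was below the filter. Bmp2, a bone morphogenetic protein gene, rose from 5.86 ± 0.93 to 27.5 ± 8.73 CPM (adjusted p = 0.0094, edgeR) and lost its call without replicate 2 of either population (adjusted p = 0.059 and 0.064), without litter 2 (0.21) and without litter 3 (0.115). Igf1, an insulin-like growth factor gene, rose from 9.07 ± 6.79 to 51.5 ± 16.8 CPM (adjusted p = 0.032, edgeR), and Igf2, its fetal relative, fell from 79.9 ± 25.6 to 5.98 ± 6.55 CPM (adjusted p = 0.023, edgeR). Angpt1, a ligand of the Tie2 receptor, fell from 30.8 ± 7.87 to 0.46 ± 0.80 CPM (adjusted p = 0.020, edgeR). Vegfc, a lymphatic and endothelial growth factor gene, had 97, 27 and 38 reads in CD206neg and 0 in CD206pos (adjusted p = 0.034, edgeR, but 0.092 with the litter block and 0.051 with limma-voom). These calls were lost on removal of single libraries. For Igf1 these were CD206neg replicates 1 and 2 and all CD206pos replicates (adjusted p between 0.052 and 0.16), and for Igf2 all CD206neg replicates and CD206pos replicates 1 and 2 (adjusted p between 0.051 and 0.11). For Angpt1 they were all CD206neg replicates and CD206pos replicate 2 (adjusted p between 0.054 and 0.12), and for Vegfc any of the 6 (adjusted p between 0.061 and 0.17). Removing litter 1 or 2 also ended the calls of Igf1, Igf2 and Angpt1 (adjusted p between 0.092 and 0.34), and removing any litter that of Vegfc (0.13 to 0.21). Single libraries, and for Igf2 also litter 1, set the size of 3 of these changes. The log2 fold change of Igf1 was 2.50, and 3.31 without CD206neg replicate 3. That of Igf2 was -3.74, with -5.20 without CD206pos replicate 3 and -3.03 without litter 1. All 24 CD206pos reads of Angpt1 were in litter 3, and its fitted log2 value went from -6.02 to -12.1 without that library, which depends on the prior count since the other 2 CD206pos libraries had 0 reads. The progenitor, granulocyte and monocyte, mast cell, megakaryocyte and endothelial marker sums given above were lower in CD206pos like Angpt1, Igf2 and Vegfc, and the macrophage sum was higher like Bmp2 and Igf1. The part of these cells in the differences was not tested.

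For members with a mean of at least 5 CPM, the 3 tested genes of at least 10 CPM with the highest Pearson r of log2 CPM over the 6 libraries were listed as a description. For Spp1 they were Gucd1 (0.99), Pgm1 (0.99) and Arfgef2 (0.98), and for Osm they were Fubp1 (0.99), Asf1a (0.98) and Dph1 (0.98). For Csf1 they were Rbbp8, March1 and Ndufaf8 (each 0.98). The 6 points share 3 litters, and the genes are the highest of all that were compared, so the lists carry no test. None of these 9 genes was called between the populations by edgeR, with adjusted p between 0.16 and 0.96.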

How the data were processed

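GFP+CD206- and GFP+CD206+ cells were sorted after collagenase digestion and their total RNA was sequenced (Illumina), per the labels' protocols. The authors deposited raw counts of reads per gene, made per the file headers with featureCounts 1.5.2 over exons of GENCODE M14, without options for strand, pairs, multi-mapping reads or overlapping genes. The submitters' processing notes name FastQC, STAR 2.3 and the builds mm10 and GRCm38.p5. Not given in the sources used here were read length, trimming and strandedness.

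Symbols came from GENCODE by gene identifier (51633 of 51912 matched). The test was that of edgeR 4.0.16 under R 4.3.3 (filterByExpr, TMM, robust quasi-likelihood F test without a litter block, Benjamini-Hochberg over 12668 genes, threshold 0.05). SE is the log2 fold change divided by the square root of F, and 95% intervals use the fit's degrees of freedom. The fits were tested on simulated data. Alternatives were the litter block, other scalings and filters, DESeq2 1.42.0, limma-voom (limma 3.58.1), the fit without robust estimation, and leaving out each library and litter. The titles number the AGM pools 1 to 3 and the series design names 3 litters, so equal numbers were read as 1 litter. Deviations from group means correlated at 0.09, 0.04 and 0.18 between libraries of litters 1, 2 and 3. Chi-square per degree of freedom between libraries of a group was between 36.9 and 90.4, so none was a copy.

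Members and lists were chosen with earlier results of these data known. The named genes are the 10 members, 8 direct receptors, up to 4 called genes per list and direction, and the 3 genes most like a member. Itga9, Itgb3, Itgb1, Itgav, Itga4, Sdc1, Mmp9, Adam17, Spint2, Thpo, Epo, Il3, Csf2, Vegfa, Cxcl12 and Pdgfd were named after their values were seen. So were the marker genes C1qb, Lyz2, S100a8, S100a9, Ms4a3, Fcnb, Ly6c2, Epcam, Hdc, Tpsb2, Fcer1a, Ms4a2, Itga2b, Ppbp, Epor and Klf1.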

Additional observations from a re-analysis of the deposited data

How the results depend on the processing

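None of the 8 tested members was called under any of the 18 alternatives. Spp1, Osm, Kitl, Pdgfa and Lif kept their sign throughout, with log2 fold changes of 0.57 to 0.96, -1.15 to -0.49, 0.51 to 1.68, 1.44 to 3.79 and -2.72 to -0.36. The sign of Csf1 turned without CD206pos replicate 3 (-0.24), that of Hgf without CD206neg replicate 1 (0.11) or litter 1 (0.14), and that of Pdgfb without CD206neg replicate 2 (0.10), CD206pos replicate 1 (0.49) or litter 1 (0.50), and the cause was not tested. With libraries or litters left out, Csf1 ranged from -0.24 to 1.04, Hgf from -0.81 to 0.14 and Pdgfb from -0.69 to 0.50. Over all genes, 617 were called in the main setting, 1210 with DESeq2 and 703 with the litter as a replicate block. Leaving out libraries or litters gave between 3 (without litter 2) and 561 (without CD206pos replicate 1), and fewer libraries also mean less power. Among the members and the named genes of the receptor, protease, transducer and other niche factor lists, the replicate block changed 3 calls. It gained Lifr and Itga9 and lost Vegfc. The stricter filter (at least 5 CPM in 3 libraries) leaves 3 of the members, Spp1, Osm and Csf1. Depth limits the low genes: 3 reads stand for 0.16 to 0.18 CPM, and Lif had 0, 50 and 24 reads in libraries of 1 population, so that single-library values of Lif, Pdgfa, Pdgfb, Pdgfc and Il34 are loosely fixed.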

Other observations

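Some niche factor genes outside the 10 had almost no reads in GFP-positive cells of either population. Thpo, Epo, Il3 and Csf2 had 0 reads in all 6 libraries, which by counting error alone allows up to 0.18 CPM in each. Vegfa, the main growth factor of blood vessels, had 1 read in the 6 libraries together, in CD206neg of litter 2. Whether Vegfa, Thpo, Epo, Il3 or Csf2 share exon bases with other genes, where reads are not counted, was not checked. Other niche factor genes had reads in some libraries and none in others. Cxcl12, a chemokine that holds stem cells in their niche, had 0, 0 and 505 reads in CD206neg of litters 1, 2 and 3 and 0, 66 and 151 in CD206pos. Its reads, like those of Pdgfc, were highest in both populations in litter 3, where the mesenchymal marker sums were 96.0 CPM (CD206neg) and 74.9 CPM (CD206pos) against 4.70 to 14.7 CPM elsewhere. The part of such cells in the Cxcl12 reads was not tested. Pdgfd had 0 reads in CD206neg and 0, 45 and 26 in CD206pos, and was below the filter.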
